A study of Mus musculus with 6 samples.

Results

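Transcripts of 9 transcription factor genes of the skull bone lineage, Sp7, Dlx3, Dlx5, Msx1, Msx2, Twist1, Alx4, Irx5 and Tcf12, were measured in sorted osteocytes of mice without estrogen receptor alpha (ERα, gene Esr1) in osteocytes. The genes were given by name, and every probe set annotated with exactly 1 of them was taken. This gave 16 of 45037 probe sets and 9 of 18193 genes. Arrays came from 3 knockout samples, labelled ERαΔOcy/ΔOcy, and 3 control samples, labelled WT littermates in 1 field and ERαflox/flox in the isolation protocol. Both groups were female C57/BL6 mice of 10 to 12 days that carried Dmp1-GFP, green fluorescent protein under the promoter of the matrix protein gene Dmp1. Calvarial cells of digestion fractions 4 to 6 were sorted for GFP through a gate that took 10% to 15% of cells, so the sorted population is defined by the promoter and the gate. The labels name neither the Cre line nor the Cre status of controls, so Cre and ERα loss cannot be told apart. The labels speak both of unpooled RNA and of pooled calvarial tissue, so the spread between arrays may not be the spread between mice.

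Skull vault bone forms directly from mesenchyme of neural crest and mesoderm. Msx and Twist factors act early in that mesenchyme and at the sutures, the growth seams between the bones. Dlx factors and then Sp7, which acts downstream of Runx2, carry cells into the osteoblast state, and some osteoblasts become osteocytes as they are buried in matrix. Twist1 and the protein of Tcf12 are basic helix-loop-helix (bHLH) factors that bind DNA as a dimer with each other. The comparison of knockout with control addresses whether transcripts of these factors differ when osteocytes lack ERα.

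Of the 9 genes 8 were bright enough to be tested, and none of them passed. They differed by between -0.23 and 0.26 on the log2 scale, and 0 of 8 had an adjusted p under 0.05 (limma, Benjamini-Hochberg), where 0% of all 10916 tested genes did. At an unadjusted p under 0.05 there were also 0 of 8, against 10.5% of all tested genes. Msx1, Msx2 and Dlx5 had higher means in knockout arrays, Sp7, Irx5 and Dlx3 had lower ones, and Twist1 and Tcf12 were within 0.01 of equal. The groups overlapped in all 9 genes, whereas 17% of all tested genes had groups that did not overlap. With all 16 probe sets in a fit over the whole array, 0% of probe sets passed, and the 16 differences ran from -0.36 to 0.33. A level here is log2(signal + 16) after quantile normalisation, and a difference is knockout minus control on that scale, which understates the change of dim probe sets.

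The arrays themselves set limits. Array medians of the deposited signal were 20.2 to 28.6 in knockout and 18.7 to 22.7 in control arrays. Across genes, pairs of knockout arrays correlated at 0.984 to 0.988 (Pearson's r) and pairs of control arrays at 0.939 to 0.969. Control replicate 2 stood apart from the other controls. Summarised over 14 tested skeletal muscle markers and centred over arrays, the level was -3.27 in control replicate 2 and 2.07 and 1.94 in control replicates 1 and 3, against -0.75 to 0.73 in knockout arrays. The level of 12 tested macrophage and osteoclast markers was 0.29, 0.19 and -0.17 in knockout arrays, against -1.07 in control replicate 1 and 0.34 and 0.41 in control replicates 2 and 3. Osteocyte and osteoblast transcripts were present in both groups. Dmp1, whose promoter drove the sorted GFP, had a mean level of 12.55 in knockout and 12.85 in control arrays. Phex was at 10.94 and 10.96, and Col1a1, a chain of bone collagen I, at 13.51 and 13.56. Other osteocyte markers were dimmer, with Sost at 7.07 and 6.85 and Mepe at 6.13 and 5.68, and Fgf23 was too dim to be tested. For the targeted gene Esr1, 3 probe sets gave unlike readings. Signals of the brightest were 81.5, 76.1 and 123.8 in knockout and 115.4, 94.1 and 83.3 in control arrays, with overlapping groups and a log2 difference of -0.20 ± 0.13 (SE, fit over all probe sets). The second brightest gave 16.3, 21.0 and 43.4 in knockout and 35.4, 24.1 and 19.7 in control arrays, again with overlap (-0.13 ± 0.21, SE). Groups did not overlap for the dimmest, near the bottom of the scale, at 1.0, 1.0 and 2.5 in knockout and 20.2, 11.6 and 13.3 in control arrays (-0.86 ± 0.13, SE).

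Sp7, also called osterix, is the zinc finger factor required for osteoblast formation. Its 1 probe set had levels of 9.29, 9.34 and 9.27 in knockout replicates 1, 2 and 3 and of 9.50, 9.60 and 9.32 in control replicates 1, 2 and 3. The knockout values lay close together, and the lowest control value, in replicate 3, fell just below the highest knockout value. Knockout differed from control by -0.17 ± 0.10 (SE, limma adjusted p = 0.571), with a 95% interval from -0.40 to 0.06. On the fold scale this interval runs from 0.757 to 1.04, so a knockout level below 0.757 of control lies outside it. With 1 array left out the difference ran from -0.25 to -0.11, below 0 each time.

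Irx5, a homeodomain factor of the Iroquois class whose loss in human patients affects the face and skull, was the other gene with a lower knockout mean and a tight spread. Its levels were 9.23, 9.23 and 9.07 in knockout arrays and 9.21, 9.42 and 9.41 in control arrays. Control replicate 1 sat among the knockout values, while the other controls lay above them. Irx5 differed by -0.17 ± 0.10 (SE, limma adjusted p = 0.581), with a 95% interval from -0.40 to 0.06. Without control replicate 1 it was -0.24 and the groups no longer overlapped, as held for 29.8% of all tested genes without that array (limma adjusted p = 0.415 to 0.988 over all alternatives). That array was also the one with the low macrophage and osteoclast marker level, whose part in Irx5 was not tested.

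**Figure D1:**
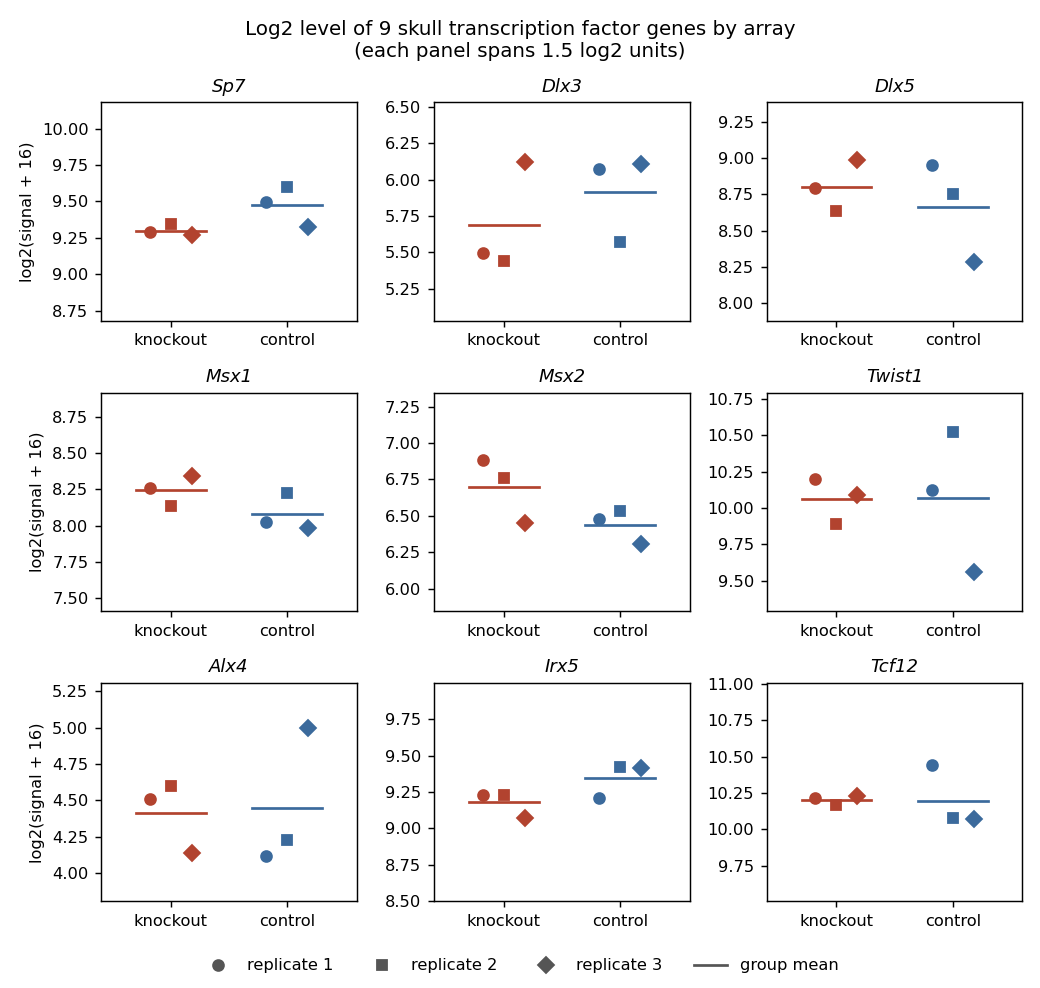
Log2 level (vertical axis, log2(signal + 16), quantile normalised) of the brightest probe set of each gene on 3 knockout arrays (left) and 3 control arrays (right). Symbols stand for replicates, bars for group means, and every panel spans the same height. In all 9 panels knockout and control values overlap, and the control values of Twist1 spread from 9.56 to 10.52.

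The Dlx genes encode homeodomain factors that follow BMP signalling in osteoblasts and bind promoters of bone matrix genes. Dlx5 had levels of 8.79, 8.63 and 8.98 in knockout arrays and of 8.95, 8.75 and 8.28 in control arrays. The lowest of the 6 values was control replicate 3, and the other values mixed. Dlx5 differed by 0.14 ± 0.18 (SE, limma adjusted p = 0.822), and it was -0.05 without control replicate 3 and 0.29 without control replicate 1. Dlx3, whose mutation in humans alters teeth, hair and bone density, was dim. Deposited signals of its brighter probe set were 28.6, 25.4 and 69.4 in knockout arrays and 54.1, 29.0 and 45.6 in control arrays. Both groups held low and high arrays, and the highest signal was knockout replicate 3. The log2 difference was -0.23 ± 0.24 (SE, limma adjusted p = 0.769), with a 95% interval from -0.78 to 0.32. The other probe set had 13.6, 17.2 and 24.5 in knockout and 19.4, 32.5 and 23.3 in control arrays, with a difference of -0.36 ± 0.20 (SE). Without knockout replicate 3 the Dlx3 difference was -0.44 and without knockout replicate 2 it was -0.11, so its size rested on single arrays. The difference of Dlx5 against Dlx3 was not tested.

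Msx1 and Msx2 encode closely related homeodomain repressors that act downstream of BMP signals and keep skull precursors dividing. A gain of MSX2 function closes human sutures early. These genes were the pair of paralogs among the 9 whose 4 probe sets all had higher knockout means, and their upstream sequence is shown for that reason. RefSeq starts for GRCm38.p6 matched 4 of the 9 genes, Msx1, Msx2, Twist1 and Tcf12. Sp7, Dlx3, Dlx5, Alx4 and Irx5 had no entry. The 250 bases before the start lie at chr5:37824586-37824835 on the minus strand for Msx1 and at chr13:53472781-53473030 on the minus strand for Msx2, 5′ to 3′. Capitals mark GGTCA, the half-site letters of estrogen receptor binding, and TAATTA, a homeodomain core, both searched on both strands.
Msx1: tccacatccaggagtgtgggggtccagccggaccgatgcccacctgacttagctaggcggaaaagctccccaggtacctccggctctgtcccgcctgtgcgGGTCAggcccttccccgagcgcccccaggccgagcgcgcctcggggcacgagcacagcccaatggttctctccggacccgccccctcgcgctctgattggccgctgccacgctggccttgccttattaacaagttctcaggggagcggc
Msx2: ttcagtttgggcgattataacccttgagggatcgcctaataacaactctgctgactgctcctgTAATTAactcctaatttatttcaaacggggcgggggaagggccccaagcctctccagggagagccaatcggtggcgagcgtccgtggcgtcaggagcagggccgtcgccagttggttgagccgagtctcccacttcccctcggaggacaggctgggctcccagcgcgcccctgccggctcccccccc
The Msx1 stretch holds 1 GGTCA, starting 149 bases before the start, and no TAATTA, while that of Msx2 holds 1 TAATTA at 187 bases and no GGTCA. Of all 32851 promoter windows of this length 35.2% hold GGTCA and 4.84% hold TAATTA. Each also holds 1 GC box (GGGCGG or its complement), the letters bound by Sp factors, which 32.7% of windows hold. These are matches of letters only, none of them overlapping another, and no binding was measured.

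Levels of Msx1 were 8.26, 8.13 and 8.34 in knockout arrays and 8.03, 8.22 and 7.98 in control arrays. Knockout replicate 2 lay below control replicate 2, and the other knockout values lay above every control. Msx1 differed by 0.17 ± 0.11 (SE, limma adjusted p = 0.619), with a 95% interval from -0.09 to 0.43. This probe set, 1448601_s_at, carries the suffix that the array maker gives to probe sets that can match several transcripts. The other, 1417127_at, had signals of 59.7, 49.1 and 57.3 in knockout and of 40.0, 59.1 and 34.2 in control arrays, with only control replicate 2 in the knockout range. After quantile normalisation control replicate 2 was at 6.33, above the knockout levels of 5.92 to 6.26. The difference of 1417127_at was 0.13 ± 0.20 (SE). Without control replicate 2 the Msx1 difference was 0.24 and its groups did not overlap, as in 34.3% of all tested genes without that array.

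Msx2 had levels of 6.89, 6.76 and 6.45 in knockout arrays and of 6.48, 6.53 and 6.30 in control arrays. Knockout replicates 1 and 2 lay above every control, and knockout replicate 3 lay among them. The difference of 0.26 ± 0.15 (SE, limma adjusted p = 0.569) was the highest of the 8 tested genes, with a 95% interval from -0.08 to 0.60, or 0.944-fold to 1.52-fold. The dimmer probe set read 19.8, 13.3 and 25.2 in knockout and 12.2, 9.1 and 13.2 in control arrays. Each knockout signal was above each control signal there, narrowly for knockout replicate 2, but not after quantile normalisation, where the difference was 0.27 ± 0.17 (SE). With 1 array left out the main difference ran from 0.17 without knockout replicate 1 to 0.38 without knockout replicate 3. With the deposited scaling the Msx2 groups did not overlap and the difference was 0.40. Under that scaling the median over all tested genes was 0.14, against -0.01 after quantile normalisation, and 13.2% of genes had groups that did not overlap.

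**Figure D2:**
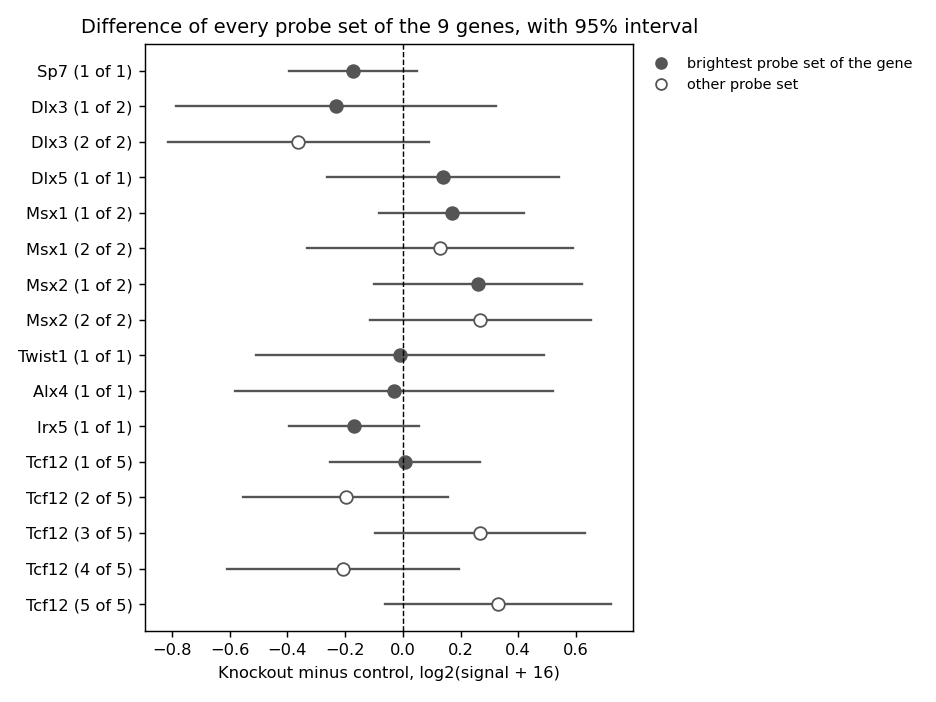
Difference between knockout and control (horizontal axis, log2(signal + 16)) for all 16 probe sets, with 95% intervals from limma over 45037 probe sets. Filled circles mark the brightest probe set of each gene and open circles the others. Every interval includes 0, and the 5 probe sets of Tcf12 lie on both sides of it.

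Twist1 and Tcf12 are dimer partners, and loss of 1 copy of either gene fuses the coronal suture in humans. The 250 bases before the Twist1 start, at chr12:33957421-33957670 on the plus strand, are given because Twist1 had the widest spread over control arrays among the 8 tested genes. Twist1 and its partners bind the E-box letters CANNTG.
Twist1: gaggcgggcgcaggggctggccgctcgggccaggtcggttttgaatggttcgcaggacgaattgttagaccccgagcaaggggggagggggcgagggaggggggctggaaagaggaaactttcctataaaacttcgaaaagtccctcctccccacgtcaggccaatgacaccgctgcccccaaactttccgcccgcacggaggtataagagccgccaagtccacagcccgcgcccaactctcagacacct
This stretch holds no capitals because it has neither GGTCA nor TAATTA, and it has no CANNTG, which 66.2% of promoter windows hold on either strand. It has 1 GC box, 62 bases before the start.

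Levels of Twist1 were 10.20, 9.89 and 10.09 in knockout arrays and 10.13, 10.52 and 9.56 in control arrays. The 3 knockout values all lay between the highest control, replicate 2, and the lowest control, replicate 3. Means were equal within error, at -0.01 ± 0.23 (SE, limma adjusted p = 0.991), but the 95% interval from -0.54 to 0.52 allows 0.69-fold to 1.43-fold. The sign turned with the control array left out, at 0.22 without replicate 2 and -0.26 without replicate 3. The control array with the most Twist1 was the one with the least muscle RNA, at -3.27, while control replicates 1 and 3, at 2.07 and 1.94 for muscle, differed in Twist1 by more than the range of the knockout arrays. The part of muscle RNA in these values was not tested.

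Tcf12 encodes HEB, a widely expressed E protein. Its brightest probe set, 1427670_a_at, had levels of 10.22, 10.17 and 10.23 in knockout and of 10.44, 10.08 and 10.07 in control arrays. Knockout arrays were nearly equal, with an SD of 0.03, and sat between control replicate 1 above and the other controls below (difference 0.01 ± 0.12, SE, limma adjusted p = 0.988). This gave the tightest bound among the members with a difference near 0, a 95% interval from -0.26 to 0.28. The other 4 probe sets disagreed in sign. 1421908_a_at and 1446294_at differed by -0.20 ± 0.15 and -0.21 ± 0.18, and 1439209_at and 1439619_at by 0.27 ± 0.16 and 0.33 ± 0.17 (SE). Of all 16 probe sets 1439619_at alone had normalised groups that did not overlap, with signals of 58.9, 49.7 and 71.0 in knockout and of 34.2, 37.2 and 44.9 in control arrays. Of all probe sets on the array 14.2% had such groups, and its adjusted p was 0.645 (limma). The annotation used does not tie these probe sets to single Tcf12 transcripts.

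Alx4, a homeodomain factor whose loss leaves openings in the human parietal bones, was near the bottom of the scale. Signals were 6.5, 7.7 and 2.1 in knockout arrays and 1.4, 2.4 and 13.6 in control arrays, all under 16, as were 38.6% to 46.9% of signals on an array. High and low values occurred in both groups. Its mean levels of 4.41 in knockout and 4.44 in control arrays lay under the level filter at 5.37, so it was the 1 member not tested, and the difference of -0.03 ± 0.24 (SE) comes from the fit over all probe sets. Detection calls were not used here, so whether Alx4 was detected cannot be said.

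**Figure D3:**
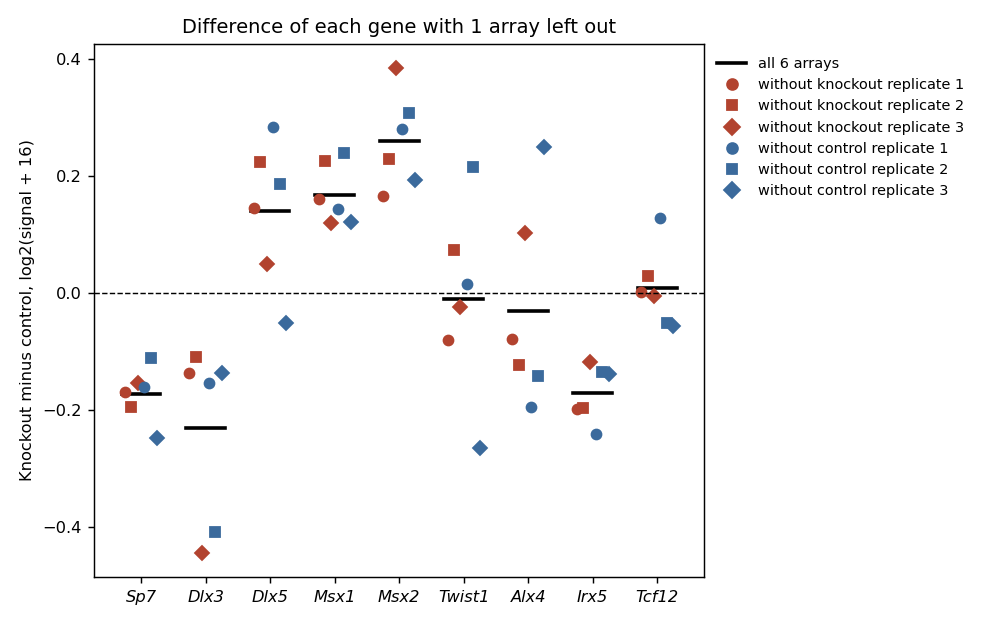
Difference between knockout and control (vertical axis, log2(signal + 16)) with all 6 arrays (black bars) and with each array left out (red symbols for knockout, blue for control). Sp7, Dlx3 and Irx5 stay below 0 and Msx1 and Msx2 above 0 in all 6 cases, while Dlx5, Twist1, Alx4 and Tcf12 cross 0.

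The deposited scaling moved the median difference of all tested genes from -0.01 to 0.14, so members were also read relative to that median. Relative to it, Sp7 lay at -0.16 with quantile normalisation and at -0.15 with the deposited scaling. Irx5 was at -0.16 and -0.15, Msx1 at 0.18 and 0.17, Msx2 at 0.27 and 0.26, while Twist1 was within 0.01 of the median under both. Each of the 8 tested genes stayed on its side of the median, although with the deposited scaling Sp7 and Irx5 differed from control by only -0.01 each. The dim Alx4, not tested, moved less than the median and went from -0.02 to -0.13 relative to it.

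The 9 genes did not vary together over the 6 arrays. Of 36 pairs, 16 had a Pearson's r above 0 and 20 below, with a median of -0.07, given as a description over 6 arrays that share groups and scaling. The highest was Dlx5 with Tcf12 (r = 0.70, Spearman's rho = 0.89) and the lowest Dlx5 with Alx4 (r = -0.95, rho = -0.89), where Alx4 is the dim gene. Twist1 and its partner Tcf12 had r = 0.16, and Msx1 and Msx2 had r = 0.41. The genes most like each member among 10651 named genes had r of at least 0.980. For Sp7 these were Ephx2 and Gnai1 (r = 0.994 each), for Irx5 Entpd7 and Tollip (0.996 and 0.990), and for Dlx5 Rai2 and Cox15 (0.995 and 0.987). For Msx1 they were Snhg1 and Nkain4 (0.994 and 0.992), for Msx2 Mtdh and Fndc3b (0.983 and 0.982), and for Dlx3 Stx16 and Taf12 (0.985 and 0.984). For Twist1 they were Ms4a15 and Sppl2a (0.993 and 0.989), for Tcf12 Lbr and Ogt (0.991 and 0.989), and for Alx4 Vwf and Mink1 (0.982 and 0.980). No member was among the 2 genes most like another member, but with 10651 candidates for 2 places this says little about the members. Alx4, under the level filter, was not a candidate. A best r picked from so many genes over 6 arrays can be high without any link, so these names are description only.

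Other transcription factors of the skull were read from a list of 45 genes, of which 35 were tested. In knockout arrays 28 had a higher and 7 a lower mean, with a median difference of 0.17 against -0.01 for all tested genes, of which 48.3% were higher. The list median was 0.11 without knockout replicate 1, and 0.08 with 23 of 34 higher when the mean of all probe sets stood for a gene. None passed the threshold with all arrays, and 17.1% had groups that did not overlap, near the 17% of all tested genes. Prrx2, a homeodomain factor of craniofacial mesenchyme, had levels of 8.23, 8.44 and 8.44 in knockout and of 7.57, 7.80 and 7.67 in control arrays, so every knockout value was above every control. Prrx2 differed by 0.69 ± 0.11 (SE, limma adjusted p = 0.183). Zic1, a zinc finger factor linked to human suture fusion, had 10.91, 10.80 and 10.95 in knockout and 10.40, 10.65 and 10.38 in control arrays (0.41 ± 0.10, SE, limma adjusted p = 0.288). Mef2c, which drives Sost expression in osteocytes, had 9.71, 9.61 and 9.53 in knockout and 10.08, 10.15 and 10.01 in control arrays (-0.46 ± 0.09, SE, limma adjusted p = 0.203). Sost itself differed by 0.21 ± 0.30 (SE, limma adjusted p = 0.840), with overlapping groups. The bHLH repressor gene Bhlhe40 differed by 0.66 ± 0.20 (SE). Without control replicate 2, Prrx2, Zic1 and Bhlhe40 passed as higher (limma adjusted p = 0.0223, 0.0319 and 0.0370), where 0.788% of all genes passed as higher. Without that array 2.73% of all genes passed in either direction, and 0 of the 8 tested members did.

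Closest relatives of the members were tested in 10 of 23 cases, and 8 had a higher and 2 a lower mean, with none past the threshold. Alx1, a relative of Alx4, was 5.99 in knockout and 5.43 in control arrays (0.56 ± 0.20, SE, limma adjusted p = 0.416). Twist2 differed by 0.43 ± 0.27, Sp4 by 0.54 ± 0.29 and Tcf3, another E protein, by 0.15 ± 0.10 (SE). Dlx1, Dlx2, Dlx4 and Msx3 were among those under the level filter. The share of higher relatives rested on that filter: with no filter 11 of 20 were higher, with a median of 0.03. The 9 tested partners and inhibitors of bHLH factors divided into 4 higher and 5 lower. Id1, which binds E proteins and keeps them off DNA, had 9.83, 10.14 and 10.03 in knockout and 10.83, 9.83 and 10.56 in control arrays. Control replicate 2 was as low as the knockouts, and Id1 differed by -0.41 ± 0.24 (SE, limma adjusted p = 0.581). Hey2, a Notch target, differed by -0.51 ± 0.22, and Id3 by -0.08 ± 0.07 (SE).

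**Figure D4:**
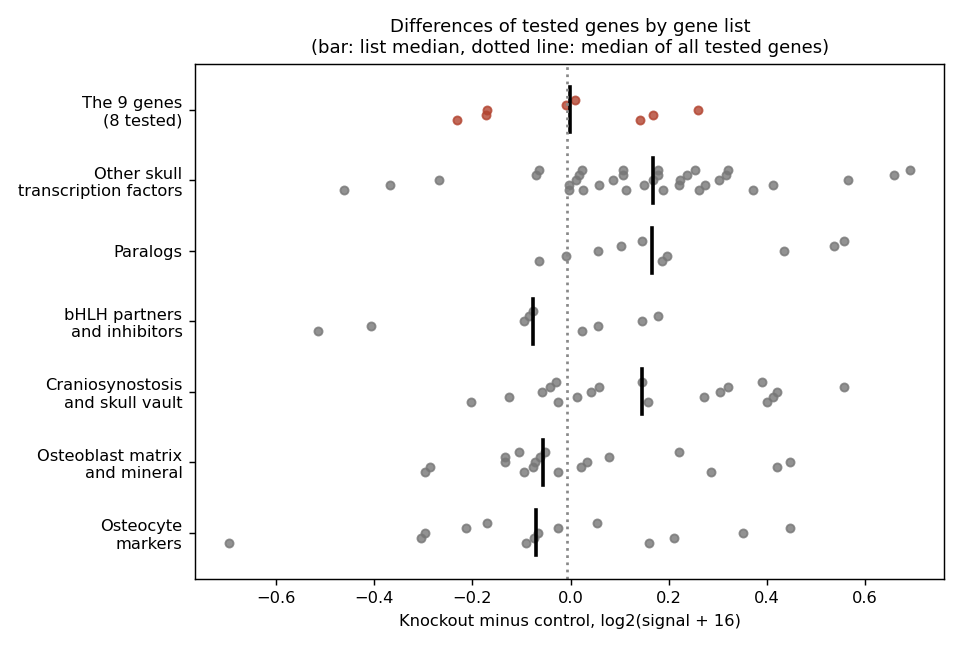
Difference between knockout and control (horizontal axis, log2(signal + 16)) of each tested gene, by list. Dots are genes, black bars list medians, and the dotted line is the median of all 10916 tested genes, -0.01. The 8 tested members spread evenly around the line, while the medians of other skull transcription factors, paralogs and craniosynostosis genes lie at 0.17, 0.17 and 0.15. Lists share some genes: the craniosynostosis list holds Zic1 and Gli3 of the skull list and Alx1 of the paralogs.

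Genes mutated in human craniosynostosis or other skull vault disorders had a higher knockout mean for 13 and a lower one for 6 of 19 tested, with a median of 0.15 and none past the threshold. Groups did not overlap for 31.6% of this list, against 17% of all tested genes, of which 48.3% had a higher mean. The FGF receptors Fgfr3 and Fgfr2, whose activating mutations close sutures in humans, differed by 0.40 ± 0.11 and 0.39 ± 0.14 (SE, limma adjusted p = 0.326 and 0.416). Alpl, alkaline phosphatase of the mineralising cell, differed by 0.42 ± 0.11 (SE, limma adjusted p = 0.311). The median fell to 0.01 without knockout replicate 1 and to 0.04 without control replicate 3. Matrix and mineral genes, which lie downstream of Sp7 and the Dlx factors, divided into 7 higher and 11 lower of 18 tested, with a median of -0.06. Without knockout replicate 3 there were 9 higher and 9 lower, with a median of -0.00021. Alpl, with its difference of 0.42 given above, had the smallest p of this list. Dmp1 differed by -0.30 ± 0.10, Serpinf1 by -0.13 ± 0.06 and Omd by -0.29 ± 0.13 (SE), none past the threshold.

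Osteocyte markers, a list that holds Irx5, had 5 higher and 9 lower of 14 tested, with a median of -0.07, and 10 of 14 were higher without control replicate 3, with a median of 0.07. Dkk1, a secreted Wnt inhibitor, had the smallest p of the list and differed by -0.70 ± 0.20 (SE, limma adjusted p = 0.349).

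BMP ligands, whose signals act upstream of Msx and Dlx genes, were read in 1 list with antagonists and response genes. This list had 10 higher and 8 lower of 18 tested, with a median of 0.01. Bambi, a decoy receptor of BMP signals, had 10.74, 10.69 and 10.76 in knockout and 11.14, 10.95 and 11.06 in control arrays (-0.32 ± 0.08, SE, limma adjusted p = 0.291). Every knockout value lay below every control. Fst, the activin antagonist follistatin, differed by 0.34 ± 0.11, Smad7 by 0.22 ± 0.10 and Bmp4 by -0.45 ± 0.25 (SE). Markers of other cells were read by list as well, and as list levels the groups were apart only for chondrocyte markers among these cell lists. Outside them, the other skull transcription factors were also apart, at 0.04 to 0.13 in knockout and -0.12 to -0.01 in control arrays. The paralogs were apart too, at 0.06 to 0.15 and -0.18 to -0.01. In the cell lists, single genes went beyond the list levels. Groups did not overlap for 75% of chondrocyte, 42.9% of meningeal and 33.3% of pericyte and smooth muscle markers, against 17% of all tested genes. For suture, endothelial and macrophage lists the share was 8.33% to 22.2%. Slc47a1 of the meningeal list differed by 1.88 ± 0.18 and Rgs5 of the pericyte list by -0.59 ± 0.07 (SE, limma adjusted p = 0.12 each). The control mean of Slc47a1, 5.11, lay under the level filter at 5.371, so it was tested only through its knockout arrays. The same held for Col9a2, Matn3 and Sox5 of the chondrocyte list, with control means of 5.367, 5.06 and 5.31. Of 16 tested chondrocyte markers 14 were higher, with list levels of 0.07 to 0.76 in knockout and of -0.83 to -0.13 in control arrays. Of 12 tested pericyte and smooth muscle markers 11 were lower, at -0.26 to -0.16 in knockout and -0.32 to 0.54 in control arrays. Suture mesenchyme and fibroblast markers were lower for 10 of 15, at -0.18 to -0.06 in knockout and -0.49 to 0.51 in control arrays. The 5 higher genes of that list were Gli1, Prrx1, Axin2, Postn and Col3a1. Gli1 differed by 0.42 ± 0.13 (SE), with groups that did not overlap, and had the smallest p of the list. Prrx1, Axin2 and Postn differed by 0.15, 0.15 and 0.06, so the count does not describe suture mesenchyme alone. Meningeal markers were higher for 4 of 7, at -0.04 to 0.50 in knockout and -0.47 to 0.34 in control arrays. With no level filter 4 of 9 meningeal markers were higher, with a median difference of -0.04, and chondrocyte markers stayed at 14 of 16. Endothelial markers were higher for 6 of 9, at -0.19 to 0.15 in knockout and -0.21 to 0.35 in control arrays. Macrophage and osteoclast markers were higher for 7 of 12, at -0.17 to 0.29 in knockout and -1.07 to 0.41 in control arrays. The part of these cells in the levels of skull transcription factors was not tested. In bulk RNA, fewer cells of a type and less RNA per cell cannot be told apart.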

How the data were processed

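Total RNA of sorted calvarial osteocytes was labelled with biotin and read on 6 Affymetrix arrays, 3 knockout and 3 control. The authors deposited 1 intensity per probe set and array on a linear scale. The submitters' processing notes name GCOS, the array software, without a version. Its background correction and scaling, not given in the sources used here, could shift dim probe sets. Depth has no counterpart on arrays, and their number limits the precision.

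From the deposited intensities log2(signal + 16) was computed and quantile normalised, because array medians differed by 0.36 on that scale, above a limit of 0.25. With 64 control probe sets removed, GEO's annotation of the platform gave 1 gene for 34945 probe sets, several for 932 and none for 9160. The brightest probe set stood for its gene. The lowest 40% of genes by mean were left out, and 10916 were tested with limma 3.58.1 in R 4.3.3 (lmFit, eBayes with trend, 2-sided, Benjamini-Hochberg at 0.05), with no covariate. The same fit over all 45037 probe sets gave the values of single probe sets. Where groups of 3 arrays are compared alone, an exact permutation test cannot give a 2-sided p under 0.1, so none is printed. The fit was tested on simulated data.

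The members and the gene lists were chosen with earlier results of these data known, so no list was tested as a set. The text names all members and their probe sets, the 2 genes most like each, up to 4 genes of smallest p per list, marker genes and Esr1. Names of Mepe and Gli3 were added for context. So were genes under the level filter by their mean over all or over control arrays, and suture list genes with higher knockout means. Lists of other cell types are given mainly by summary, and the planned markers Acan and Acta1 are not given singly. Alternatives were the deposited scaling, pseudocounts of 1 and 64, no filter or a filter of 60%, the mean of all probe sets, no trend, array weights, the replicate number as a block, and each array left out. A planned comparison of member proteins was not run.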

Additional observations from a re-analysis of the deposited data

How the results depend on the processing

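No member passed an adjusted p of 0.05 (limma) under any of the 15 alternatives, including the 6 that left out 1 array. Over all genes, 30 passed as higher and 0 as lower with the deposited scaling, and with 1 array left out 0 to 86 passed as higher and 0 to 212 as lower, the upper values without control replicate 2. Differences below 0 were found for 5 members with all arrays and for 3 with the deposited scaling. With the deposited scaling or the mean of all probe sets 1 member, Msx2, had groups that did not overlap, and with 1 array left out 0 to 2 members did. Signs turned for Twist1, Alx4, Dlx5 and Tcf12. Twist1 was at 0.13 with the deposited scaling and at 0.056 with array weights, and ran from -0.26 to 0.22 with 1 array left out. Alx4 was at 0.0088 with the deposited scaling and at 0.12 with a pseudocount of 1, and ran from -0.19 to 0.25 with 1 array left out. Dlx5 ran from -0.050 to 0.29 and Tcf12 from -0.056 to 0.13 with 1 array left out. The cause of these turns was not tested. With the replicate number as a block, 0 members and 0 genes passed. Deviations from the group mean correlated at -0.38, 0.10 and -0.04 for same-numbered arrays and at -0.34 to 0.43 for arrays of unlike number. With 3 arrays per group, centred within the group, these values cannot tell whether the numbers pair the samples.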

Other observations

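The control arrays spread more than the knockout arrays for 7 of the 9 genes, with an SD of 0.16 in knockout and 0.48 in control arrays for Twist1, and of 0.03 and 0.21 for Tcf12. Dlx3 and Msx2 were the exceptions, at 0.38 and 0.30 for Dlx3 and at 0.23 and 0.12 for Msx2. The control SD was the larger for 67.6% of all tested genes, so the members followed the array-wide pattern. Without control replicate 2 it was the larger for 52.8% of all tested genes and for 6 of the 9.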
